A study of Homo sapiens with 6 samples.

Results

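The genes described here encode subunits of the transcription factor AP-1 and close relatives, namely FOS, FOSB, FOSL1, FOSL2, JUN, JUNB, JUND, ATF3, MAFF and MAFK. They were chosen by name, and the choice was made with the high level of FOSL1 and the higher FOS values of the cells labelled sh-CFB already known. Their levels and their differences between the groups are therefore given as a description, without a test. All 10 were found among the 28495 genes of the deposited table, and all 10 passed a filter on low values that kept 12466 genes.

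AP-1 is a family of leucine zipper proteins that bind DNA as dimers. FOS proteins cannot pair with each other and need a JUN partner, whereas JUN proteins can also pair among themselves. The dimers bind short sites near genes of growth, migration and stress, and many of the subunit genes are switched on within minutes by growth factors or stress through MAP kinases, their mRNA being short-lived. In carcinoma cells of mesenchymal character FOSL1, also called FRA-1, is often the leading FOS protein.

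RNA was measured by poly(A) RNA-seq in NCI-H1299, an established human lung carcinoma line. The sh-CFB cells were labelled for a reagent against CFB, the gene of complement factor B, and the control cells were sh-NC. Each group had 3 libraries, and the labels give no other treatment, no time and no clone. No label says that the libraries of a group came from separate cultures, so the spread between them may be technical. The labels call the reagents short hairpins, while the columns of the table are named in the manner of siRNA.

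Recovered depth ran from 26230379 to 38421873 reads in sh-CFB and from 32941678 to 40031649 reads in sh-NC. CFB itself had 0, 0 and 2 reads in sh-CFB libraries and 1, 6 and 5 reads in sh-NC libraries, where it was at most 0.0321 FPKM. The control cells thus held hardly any CFB mRNA. These reads are too few to show silencing or to check the labels library by library. The deviation of each library from the gene mean followed GC content to different degrees. Its Spearman rho across genes, which are not independent replicates, was 0.595, -0.0967 and -0.156 for the sh-CFB libraries in order of replicate number and -0.555, -0.248 and 0.234 for the sh-NC libraries. Of the lung markers, NKX2-1 lay between 0.120 and 0.339 FPKM over all 6 libraries and the surfactant gene SFTPC at or near 0, and the epithelial genes CDH1, EPCAM and KRT19 were at or near 0. The epithelial keratin genes KRT8 and KRT18 lay between 31.8 and 55.2 and between 134.8 and 207.1 FPKM. Of the mesenchymal genes, VIM lay between 380.8 and 477.3 FPKM, CDH2 between 1.43 and 2.85 and ZEB1 between 1.15 and 2.95 FPKM. The summed FPKM of the 3 immune markers listed in the table of 6 sought, 4 of 5 fibroblast, 4 of 4 endothelial and 1 of 3 erythroid markers was at most 0.0120, 0.295, 0.175 and 0.143 in sh-CFB and at most 0.0758, 0.329, 0.196 and 0.121 in sh-NC, in that order. In bulk RNA, fewer cells expressing a gene and less RNA per cell cannot be told apart.

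The promoters of 7 of the subunit genes held either of 2 related motifs, TGACGT in 5 genes and TGACATCA in 2. The stretches below are printed because they show which members hold which. RefSeq promoter windows on GRCh38.p14, from 250 bases before the annotated start to 50 bases after it, were present for 8 of the 10 genes in 10 windows, all but FOSL1 and MAFK. Both strands were searched. Each line gives 30 bases 5′ to 3′ on the strand of the gene, and the capitals mark the match. The first 5 lines hold TGACGT, the core of the cAMP response element (CRE), and those of JUND and MAFF hold the whole element, TGACGTCA. The last 2 hold TGACATCA, a variant known from the JUN promoter, where a JUN and ATF2 dimer binds.
FOS: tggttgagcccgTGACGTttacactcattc
FOSB: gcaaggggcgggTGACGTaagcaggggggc
FOSL2: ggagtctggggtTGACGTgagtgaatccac
JUND: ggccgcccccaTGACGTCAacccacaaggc
MAFF: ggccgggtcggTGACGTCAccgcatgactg
JUN: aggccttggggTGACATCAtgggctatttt
ATF3: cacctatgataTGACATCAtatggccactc

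These stretches lie at chr14:75278752-75278781 for FOS, chr19:45467924-45467953 for FOSB, chr2:28392780-28392809 for FOSL2 and chr22:38201929-38201958 for MAFF, all on the forward strand. The ATF3 stretch, also forward, is chr1:212565273-212565302, while JUND (chr19:18281804-18281833) and JUN (chr1:58784096-58784125) lie on the reverse strand. In FOS, FOSB, FOSL2, MAFF and JUN the first capital stood between 54 and 67 bases before the start, and in ATF3 and JUND it stood 123 and 200 bases before it. The core TGACGT, a search added after the sequences had been seen, was present in 7.98% of 35116 promoter windows, and it overlaps the whole element, present in 1.85%. TGACATCA was present in 2.61%, and the share of windows holding either motif was not counted. The palindrome that gave AP-1 its best known site, TGACTCA, was present in 4.95% of windows and among the members in FOSL2, where it starts 4 bases after the annotated start. The serum response (CArG) box, present in 1.29% of windows, was not matched in the windows of these genes. A box lying farther than 250 bases before the start would have been missed, and FOSL1 and MAFK had no window. The search therefore cannot tell whether these genes have such a box. A match of letters is not a bound site.

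FOSL1 was the most abundant of the 10 genes in every library, and FOS was the member with the largest difference between the groups. FOSL1 averaged 371.0 ± 24.6 FPKM in sh-CFB and 416.2 ± 12.8 FPKM in sh-NC (SD, n = 3 each), where FPKM are reads scaled to gene length and library size. Its mean over all 6 libraries exceeded that of 99.1% of tested genes. FOS averaged 16.3 ± 7.93 FPKM in sh-CFB and 4.10 ± 0.203 FPKM in sh-NC, a difference of 1.77 on the log2(FPKM + 0.5) scale (SE 0.29), or 3.41-fold. JUN, JUNB and JUND lay between these extremes in level, and JUNB and JUND were higher in every sh-CFB library than in any sh-NC library.

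By mean over all 6 libraries the order of levels per gene length was FOSL1, JUND, JUNB, JUN, MAFK, MAFF, FOSL2, FOS, ATF3 and FOSB. FOSL1 stood 3.31-fold above JUND. MAFK and MAFF did not differ beyond their spread in either group. JUNB and JUN overlapped in sh-CFB, as did FOSL2 and FOS, while in sh-NC MAFF overlapped FOSL2 and FOS overlapped ATF3. The remaining neighbours did not overlap within either group. The place of FOS depended on the group, since in sh-CFB it lay above ATF3 in every library with means of 16.3 and 3.78 FPKM, and in sh-NC the FOS mean of 4.10 FPKM lay below the ATF3 mean of 5.31 FPKM.

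**Figure D1:**
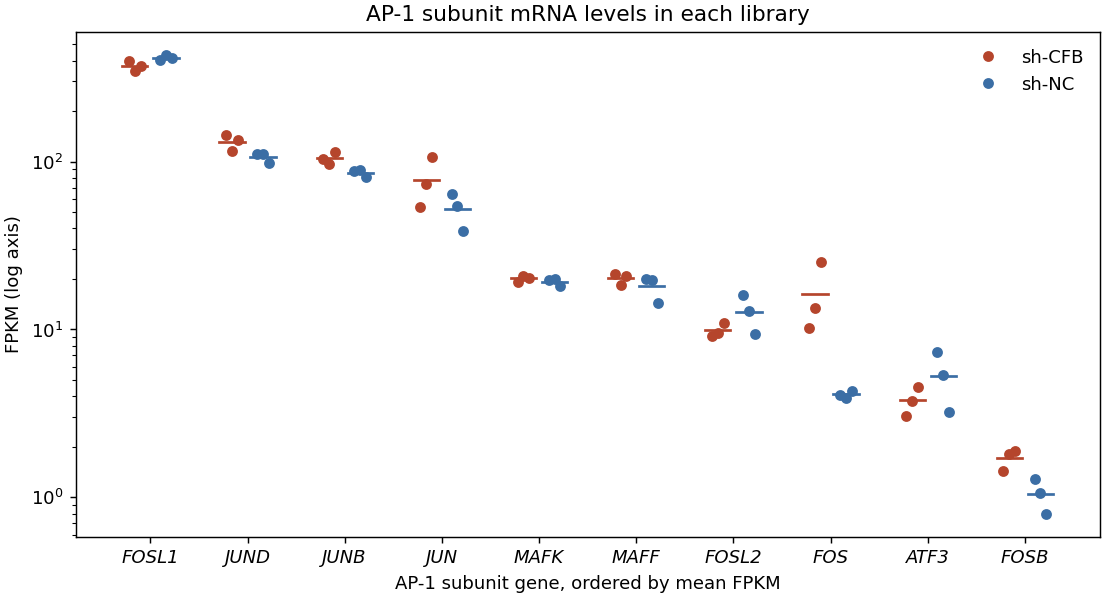
FPKM of the 10 AP-1 subunit genes on a log axis, with 1 point per library and a tick at each group mean, sh-CFB left of sh-NC. FOSL1 lies above every other gene in all 6 libraries, and the FOS points of sh-CFB, from 10.2 to 25.3 FPKM, lie above those of sh-NC, from 3.93 to 4.33 FPKM.

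The FOS family comprised the highest and the lowest member. FOS, the founding member and an immediate early gene, lies on chr14:75278774-75282230 and has 4 exons. It had 10.2, 13.5 and 25.3 FPKM in sh-CFB replicates 1, 2 and 3 and 4.06, 3.93 and 4.33 FPKM in the sh-NC replicates. These values rested on 855, 1434 and 3098 reads in sh-CFB and on 510, 501 and 454 reads in sh-NC. The groups did not overlap, the lowest sh-CFB value being that of replicate 1 and the highest that of replicate 3. The spread was unequal, with a coefficient of variation of 48.6% in sh-CFB and 4.94% in sh-NC. Without sh-CFB replicate 3 the difference was 1.41.

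FOSB, an immediate early gene close to FOS, was the lowest member. It had 1.44, 1.81 and 1.88 FPKM in sh-CFB and 1.29, 1.06 and 0.798 FPKM in sh-NC, from between 210 and 402 reads in sh-CFB and between 146 and 282 reads in sh-NC. The groups did not overlap, and the log2 difference was 0.52 (SE 0.18). With FPKM rescaled to equal totals the groups overlapped, sh-CFB replicate 1 standing at 1.36 and sh-NC replicate 1 at 1.37. FOSB overlaps ERCC1 on the opposite strand, and since the strand setting of the counting is not given in the sources used here, reads of such partners cannot be told apart.

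FOSL1, on chr11:65892049-65900573 on the reverse strand, encodes FRA-1, a FOS protein without the C-terminal activation domain of FOS. It had 396.5, 347.4 and 368.9 FPKM in sh-CFB and 405.6, 430.4 and 412.5 FPKM in sh-NC. Every sh-CFB library lay below every sh-NC library, with a log2 difference of -0.17 (SE 0.10). The median tested gene stood at -0.15, so FOSL1 was at -0.02 relative to it. With median-of-ratios factors the FOSL1 difference was 0.038 and the groups overlapped, whereas correcting for GC content and length gave -0.23 without overlap, the median tested gene then standing at 0.02 and 0.01. FOSL2, which encodes the related FRA-2, had 9.20, 9.58 and 10.9 FPKM in sh-CFB and 16.1, 12.8 and 9.34 FPKM in sh-NC. The groups overlapped and sh-NC varied more, with a coefficient of variation of 26.6%, against 9.17% in sh-CFB. The FOSL2 difference was -0.32 (SE 0.19).

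In the JUN family, JUN itself varied most between libraries. JUN, the partner that FOS proteins need and a gene of 1 exon, had 53.9, 73.5 and 106.6 FPKM in sh-CFB and 64.1, 54.5 and 38.6 FPKM in sh-NC. The groups overlapped, because sh-CFB replicate 1 lay below sh-NC replicates 1 and 2. The difference was 0.54 (SE 0.27), and it was 0.94 without the replicate 1 libraries of both groups.

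JUNB, a JUN relative that activates less strongly than JUN at many sites, had 103.2, 96.1 and 114.6 FPKM in sh-CFB and 88.2, 88.8 and 81.2 FPKM in sh-NC. JUND, the JUN gene known for steady expression in resting cells, had 143.8, 115.4 and 134.8 FPKM in sh-CFB and 111.4, 111.2 and 98.0 FPKM in sh-NC. Neither gene's groups overlapped, and the log2 differences were 0.28 (SE 0.10) for JUNB and 0.29 (SE 0.11) for JUND. Both genes are rich in GC, at 64.9% for JUNB and 69.7% for JUND, and libraries differed in their relation to GC. Once GC content and length were corrected for, the groups overlapped for both, with differences of 0.11 for JUNB and 0.07 for JUND. JUNB also overlaps HOOK2 on the opposite strand.

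For the 3 remaining members the groups overlapped on FPKM as deposited. ATF3, a stress-induced factor that pairs with JUN proteins and often represses, had 3.06, 3.77 and 4.53 FPKM in sh-CFB and 7.37, 5.34 and 3.21 FPKM in sh-NC, a difference of -0.39 (SE 0.28). Its sh-NC values spanned a 2.30-fold range that included all but the lowest sh-CFB value. MAFF and MAFK encode small MAF proteins, which have no activation domain and pair with NFE2-related and BACH factors. MAFF had 21.3, 18.4 and 20.8 FPKM in sh-CFB and 20.1, 19.7 and 14.4 FPKM in sh-NC, a difference of 0.17 (SE 0.15). MAFK was the steadiest member, with 19.3, 21.0 and 20.2 FPKM in sh-CFB and 19.6, 19.9 and 18.2 FPKM in sh-NC. Its difference was 0.06 (SE 0.09), and -0.05 when corrected for GC and length. With median-of-ratios factors the MAFK groups did not overlap, at 24.3, 21.1 and 19.7 in sh-CFB against 16.5, 18.8 and 18.5 in sh-NC. Each small MAF gene overlaps a gene on the opposite strand, PLA2G6 for MAFF and TMEM184A for MAFK.

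**Figure D2:**
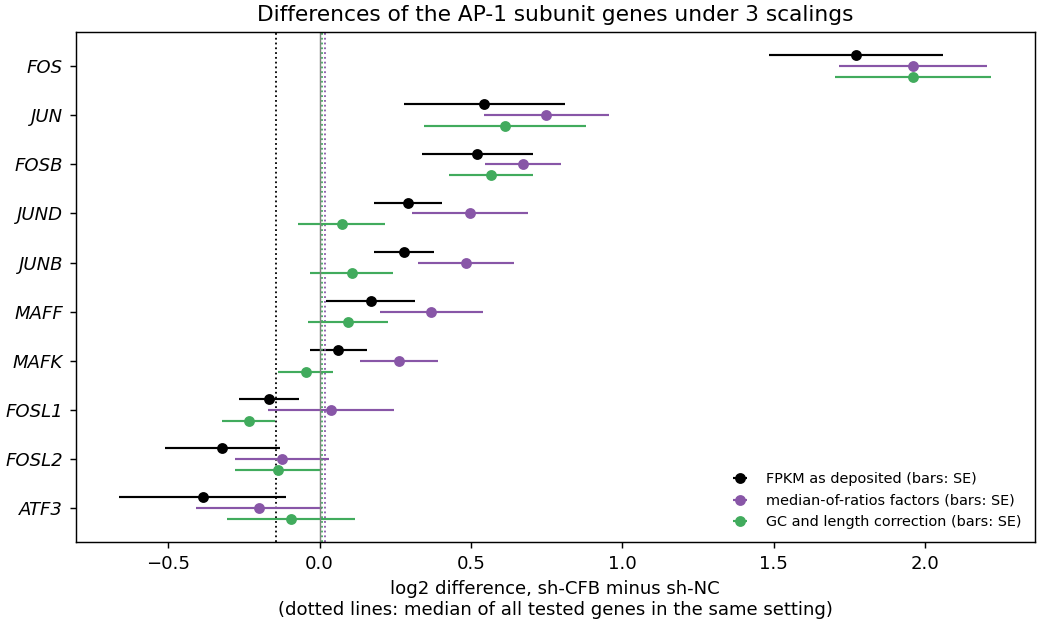
Difference of each AP-1 subunit gene, sh-CFB minus sh-NC on the log2(FPKM + 0.5) scale, as a point with its standard error under 3 scalings, with dotted lines at the median tested gene of each. On FPKM as deposited FOS stands at 1.77, JUN and FOSB at 0.54 and 0.52 and the remaining members between -0.39 and 0.29, while JUND and JUNB lie near 0 after the GC and length correction.

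Across all tested genes 929 (7.45%) passed an adjusted p of 0.05 with limma, 217 (1.74%) of them higher and 712 (5.71%) lower in sh-CFB. Corrected for GC and length, 571 were higher and 749 lower, with quantile normalization 465 and 636, and with median-of-ratios factors 68 and 138. Of the 10 members 1, FOS, was past that threshold. The FOS difference ran from 1.41 to 2.11 over 19 other settings. FOS did not pass without sh-CFB replicate 2, without sh-NC replicate 2, without the filter on low values or with a replicate block. Those fits had 39, 20, 324 and 0 genes past the threshold in all, in that order. The groups did not overlap for 5 members (33.7% of all tested genes), 4 of them higher in sh-CFB (10% of all tested genes) and 1 lower (23.6%). Since the members were chosen with this contrast known, nothing is read from these counts or from whether FOS passed. The median difference of the members was 0.22, that of all tested genes -0.15. The number of members without overlap changed with the scaling, to 2 higher and 1 lower when corrected for GC and length and to 6 higher and 0 lower under median-of-ratios factors. FOS and FOSB were the members higher without overlap after the GC correction, FOS and JUNB with FPKM rescaled to equal totals, and with median-of-ratios factors JUN and MAFK joined FOS, FOSB, JUNB and JUND.

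The make-up of the family within a library does not depend on a scaling by 1 factor for that library. The GC and length correction differs from gene to gene and can change it, and the shares below are on FPKM as deposited. FOSL1 took 52.1, 49.6 and 45.6% of the summed FPKM of the 10 genes in sh-CFB, against 55.0, 57.6 and 60.6% in sh-NC, without overlap between the groups. FOS took 1.34, 1.93 and 3.13% in sh-CFB, against 0.550, 0.525 and 0.636% in sh-NC. So FOSL1 remained the main FOS-family transcript in every library. Expressed against FOSL1, FOS stood at 2.58, 3.88 and 6.86% in sh-CFB and at 1.0, 0.913 and 1.05% in sh-NC.

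The balance between the families differed as well. The summed FOS family was 1.39, 1.31 and 1.14 times the summed JUN family in sh-CFB and 1.62, 1.76 and 1.96 times in sh-NC, and the groups did not overlap. JUN made up 17.9, 25.8 and 29.9% of the JUN family in sh-CFB, against 24.3, 21.4 and 17.7% in sh-NC, and the groups overlapped. The sum over all 10 genes was 762, 700 and 808 FPKM in sh-CFB and 738, 748 and 681 FPKM in sh-NC, which overlapped. These are shares of mRNA, and protein was not measured.

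**Figure D3:**
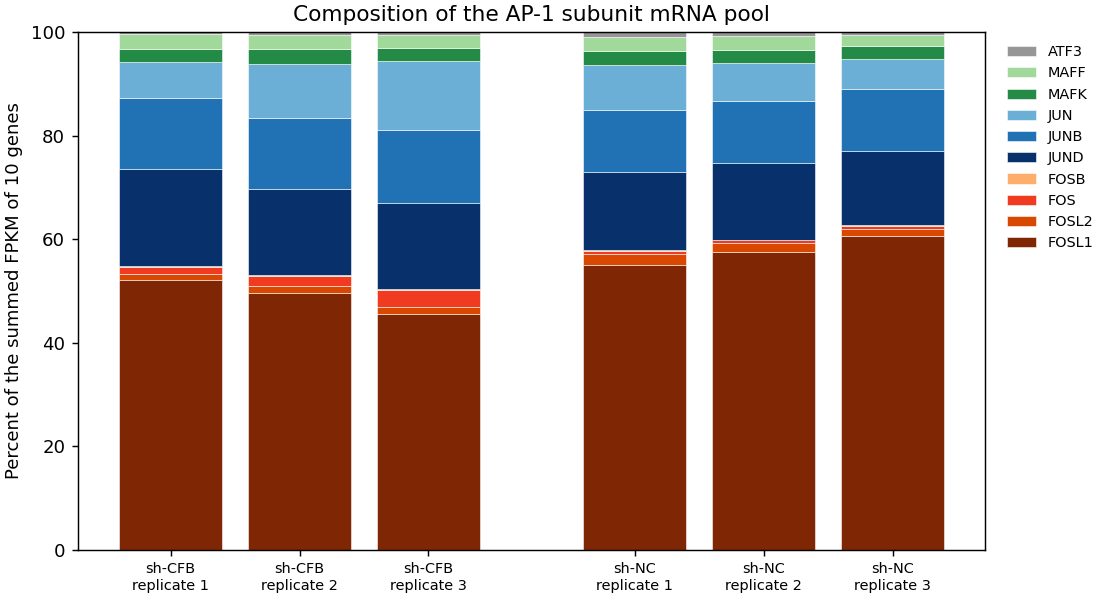
Share of each gene in the summed FPKM of the 10 AP-1 subunit genes, as 1 stacked bar per library with sh-CFB left of sh-NC. FOSL1 takes between 45.6 and 52.1% in sh-CFB and between 55.0 and 60.6% in sh-NC.

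FOS and JUN ran in the same order through the sh-CFB libraries, lowest in replicate 1 and highest in replicate 3, on FPKM as deposited and under the other 3 scalings. Replicate 1 was also the library with the GC relation of 0.595. FOSB, ATF3 and FOSL2 had this order on FPKM as deposited, but FOSL2 and ATF3 lost it after the GC correction and with median-of-ratios factors, and FOSB then spanned 1.82 to 1.84 with those factors. Among other immediate early genes EGR1, a zinc finger factor, had 26.7, 57.4 and 135.0 FPKM in the sh-CFB replicates and 32.5, 32.6 and 28.7 FPKM in the sh-NC replicates. The EGR1 difference of 0.91 (SE 0.49) did not pass the test (limma, adjusted p = 0.283). EGR1 was named after its values were seen. The HSP70 gene HSPA6, silent in most unstressed cells, had 8.77, 13.2 and 24.9 FPKM in sh-CFB and 1.12, 1.08 and 0.786 FPKM in sh-NC, and it too was highest in sh-CFB replicate 3. HSPA1A had 123.4, 151.0 and 220.3 FPKM in sh-CFB and 36.3, 41.5 and 36.4 FPKM in sh-NC. HSPA1B, a near-identical copy with which it can share reads, had 79.4, 94.9 and 136.7 FPKM in sh-CFB and 18.5, 22.9 and 20.01 FPKM in sh-NC.

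The lists of this and the following paragraphs were, like the members, chosen with earlier results of these data known. Their counts, medians and adjusted p-values are therefore a description. The counts stand beside 1.74% of all tested genes that rose and 5.71% that fell. In the list of stress-inducible heat shock genes 3 of 8 rose, 0 fell and 5 did not pass, with a median of 0.41 against -0.15 over all tested genes. The log2 differences were 3.31 for HSPA6 (SE 0.34, limma adjusted p = 0.00727), 2.06 for HSPA1A (SE 0.20, limma adjusted p = 0.00727) and 2.28 for HSPA1B (SE 0.19, limma adjusted p = 0.00613). DNAJB1, an HSP40 partner of HSP70, had 40.3, 51.4 and 66.4 FPKM in sh-CFB and 32.6, 35.4 and 33.8 FPKM in sh-NC, without passing (0.60, limma adjusted p = 0.0736). The remaining 4 did not pass, HSPB1 at 0.22, BAG3 at -0.18, HSPH1 at -0.36 and HSPA8 at -0.42. The 3 HSP70 genes that rose and DNAJB1 ran through the sh-CFB libraries in the order of FOS, whereas among sh-NC libraries FOS was highest in replicate 3 and none of these was. On FPKM as deposited HSPH1, BAG3 and HSPA8, which did not rise, had the same order in sh-CFB, and HSPB1 did not. Some genes of other lists, such as SRF and AXL, had it as well, so the order was not particular to the genes that rose. The part of the heat shock genes in the FOS difference was not tested. Transcripts encoded by mitochondria, taken as a sign of RNA quality, summed to between 12671 and 15697 FPKM in sh-CFB and between 14640 and 23067 FPKM in sh-NC, and 0 of the 13 passed the limma test (2 at an unadjusted p under 0.05, and 0 past the adjusted threshold with voom on recovered reads).

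**Figure D4:**
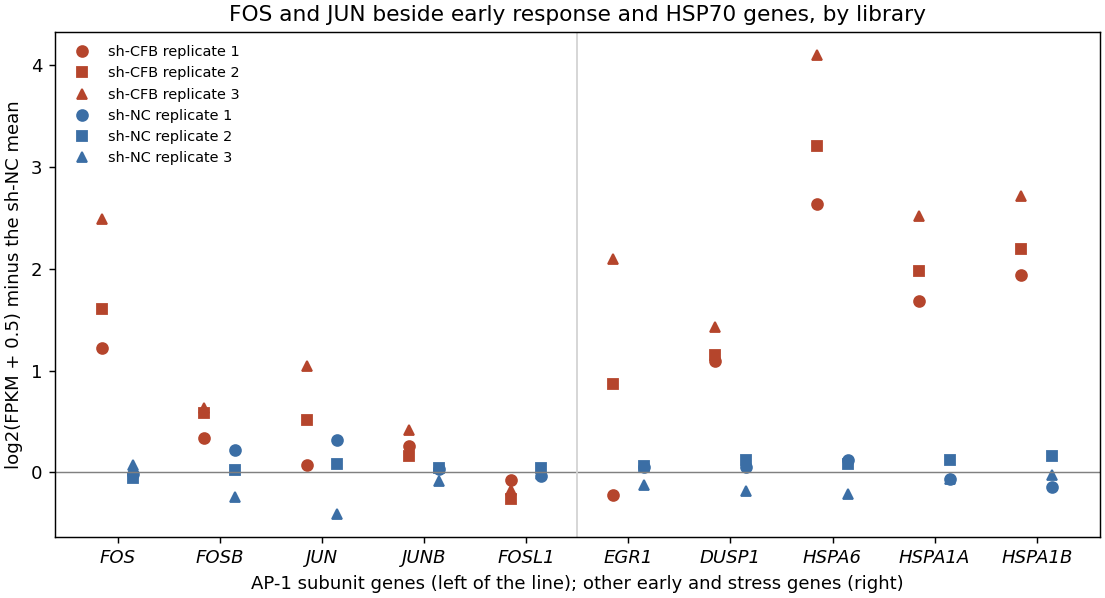
log2(FPKM + 0.5) of each library minus the sh-NC mean, for FOS, FOSB, JUN, JUNB and FOSL1 left of the line and for EGR1, DUSP1 and 3 HSP70 genes right of it. FOS, JUN, EGR1 and HSPA6 are lowest in sh-CFB replicate 1 and highest in sh-CFB replicate 3 among the sh-CFB libraries.

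Among dimer partners and other bZIP genes 21 of 29 were tested, of which 1 rose, 2 fell and 18 did not pass, with a median of -0.16. JDP2, which pairs with JUN proteins and represses AP-1 sites, had 0.670, 0.967 and 0.765 FPKM in sh-CFB and 2.86, 2.33 and 1.83 FPKM in sh-NC. It fell by 1.12 on the log2 scale (SE 0.19, limma adjusted p = 0.0193). CEBPB, a factor of inflammatory and acute phase genes, fell by 0.58 (SE 0.10, limma adjusted p = 0.0190) to 21.4 ± 1.31 FPKM in sh-CFB, against 32.2 ± 2.28 FPKM in sh-NC. Its relative CEBPD rose by 0.63 (SE 0.14, limma adjusted p = 0.0416), and it did not pass when corrected for GC and length (0.43, limma adjusted p = 0.137). JDP2 and CEBPB passed after that correction and without sh-CFB replicate 1 or sh-NC replicate 3. JDP2 did not pass without any 1 of the other 4 libraries, CEBPB did not pass without sh-CFB replicate 2, sh-NC replicate 1 or sh-NC replicate 2, and CEBPD did not pass in any of the 6 fits that leave out a library.

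The MAP kinases and the serum response factors that act upstream of FOS did not pass the test in either direction. Of 22 tested genes 0 were past the threshold with limma or with voom on recovered reads, 3 had an unadjusted p under 0.05, and the median was -0.11. Corrected for GC and length, 2 fell, RPS6KA4 and MRTFA, named after their values were seen. MAP2K2, the kinase above ERK with the highest level in the list, stood at 0.22 (limma adjusted p = 0.357). In the list for mRNA decay and protein turnover of AP-1, 1 of 15 tested genes rose, 3 fell and 11 did not pass, with a median of -0.25. With median-of-ratios factors 1 rose and 0 fell, with a median of -0.09, and 3 had an unadjusted p under 0.05. With voom and those factors 2 rose and 0 fell. ZFP36, which encodes tristetraprolin and marks AU-rich mRNA such as that of FOS for decay, had 106.5, 111.5 and 125.6 FPKM in sh-CFB and 68.5, 75.8 and 67.7 FPKM in sh-NC. It rose by 0.69 (SE 0.10, limma adjusted p = 0.0131). HNRNPD, the AU-rich element binding protein AUF1, fell by 0.72 (SE 0.11, limma adjusted p = 0.0135) and ELAVL1, the mRNA-stabilising protein HuR, fell by 0.52 (SE 0.10, limma adjusted p = 0.0302). The third that fell was KHSRP, another AU-rich element binding protein. When corrected for GC and length ZFP36 passed (0.71), and HNRNPD (-0.55, limma adjusted p = 0.0660) and ELAVL1 (-0.22, limma adjusted p = 0.405) did not. ZFP36 and HNRNPD did not pass without sh-CFB replicate 2 or without sh-NC replicate 2, and ELAVL1 did not pass without any 1 of the 6 libraries.

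Most genes with well-known AP-1 sites did not pass the adjusted threshold on FPKM as deposited. Of 22 tested from 32, 1 rose, 2 fell and 19 did not pass, with a median of 0.00. Of the 22, 10 had an unadjusted p under 0.05 (limma), beside 3225 of all 12466 tested genes. Without overlap between the groups, 7 of the 22 were higher and 2 lower in sh-CFB. Among all tested genes 10% were higher and 23.6% lower without overlap. CDKN2A, which encodes the cell cycle inhibitors p16 and ARF, rose by 0.59 (SE 0.14, limma adjusted p = 0.0426), with 48.4 ± 5.70 FPKM in sh-CFB and 31.9 ± 4.70 FPKM in sh-NC. HMOX1, the haem-degrading enzyme, fell by 0.97 (SE 0.20, limma adjusted p = 0.0312), with 26.9, 23.0 and 23.7 FPKM in sh-CFB and 61.0, 54.1 and 34.7 FPKM in sh-NC. EZR, a linker of membrane and actin, fell by 0.45 (SE 0.11, limma adjusted p = 0.0482), and it did not pass when corrected for GC and length (-0.22, limma adjusted p = 0.112). CDKN2A and HMOX1 passed in that fit, where the list held 6 genes that rose and 1 that fell, with a median of 0.19 against 0.01 over all tested genes. With median-of-ratios factors 0 genes of the list rose and 0 fell, and likewise with voom and those factors. Of the 6 fits that leave out a library, CDKN2A and HMOX1 passed in that without sh-NC replicate 3 alone, and EZR passed in none.

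Among other immediate early genes, in a list also chosen with earlier results known, more rose than fell. Of 22 tested from 28, 5 rose, 1 fell and 16 did not pass, with a median of 0.19. DUSP1, which encodes a MAP kinase phosphatase, rose by 1.22 (SE 0.13, limma adjusted p = 0.00753), with 52.7, 55.1 and 66.5 FPKM in sh-CFB and 25.5, 26.7 and 21.5 FPKM in sh-NC. DUSP2, another such phosphatase at 1.15 ± 0.216 FPKM in sh-CFB and 0.396 ± 0.0759 FPKM in sh-NC, rose by 0.87 (SE 0.17, limma adjusted p = 0.0279). The remaining 3 that rose were NR4A2, GADD45B and RHOB, and the 1 that fell was CCN2, an extracellular matrix-associated factor. CCN2 fell by 0.50 (limma adjusted p = 0.0463) and did not pass when corrected for GC and length (-0.30, limma adjusted p = 0.0880), where 8 genes of the list rose and 1 fell. DUSP1 passed in all 6 fits that leave out a library, and DUSP2 and CCN2 passed in none of these.

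Over all lists 19 genes changed, and over all 12466 tested genes 929 (7.45%) did. Of these 19, 14 passed when corrected for GC and length and 9 under median-of-ratios factors. Without sh-CFB replicate 2, and likewise without sh-NC replicate 2, 4 of the 19 passed, namely DUSP1, HSPA6, HSPA1A and HSPA1B. Without sh-NC replicate 1 the number was 7.

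**Figure D5:**
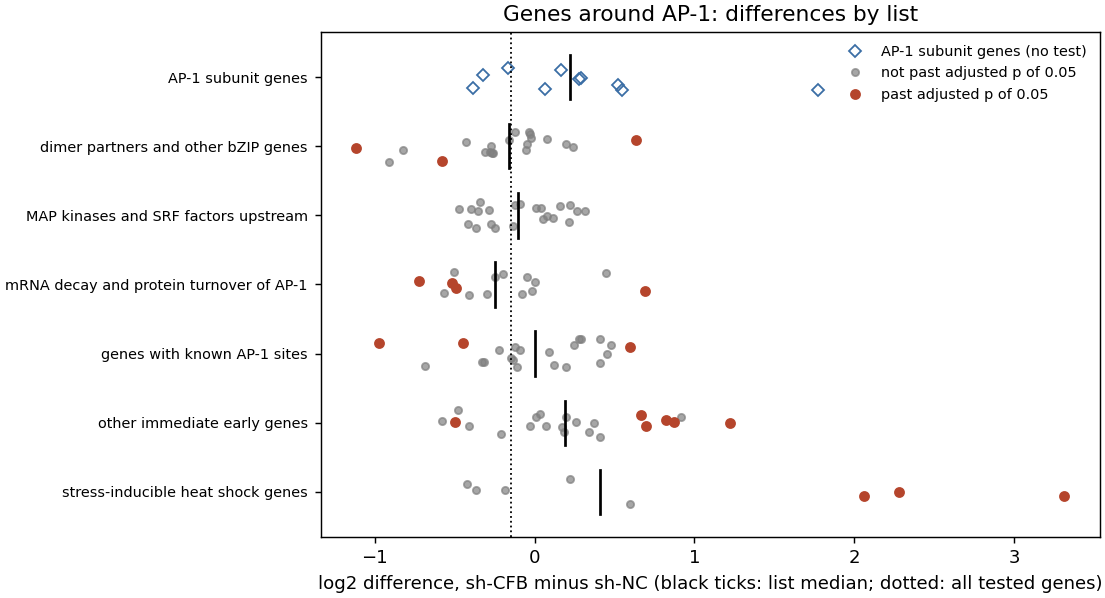
Difference of each tested gene, sh-CFB minus sh-NC on the log2(FPKM + 0.5) scale, for the AP-1 subunit genes and 6 lists of related genes, with a tick at each list median and a dotted line at the median of all tested genes, -0.15. Filled red points passed an adjusted p of 0.05 with limma, and the AP-1 subunit genes are drawn as open diamonds, as a description without a test.

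The genes whose levels followed FOS and FOSL1 most closely were found by Pearson's r of log2(FPKM + 0.5) over the 6 libraries among 7350 protein-coding genes whose mean was at least 2 FPKM. This is a description of libraries that share their groups, depth and GC relation, and it has no p. For FOS these were LDAF1 (r = 0.998), TWIST1 (0.994), IGBP1 (0.991), DACT1 (0.988) and BFSP1 (0.987). Their differences were smaller than that of FOS, as LDAF1 had 8.76, 9.13 and 10.7 FPKM in sh-CFB and 6.79, 6.65 and 6.82 FPKM in sh-NC. For FOSL1 they were TMEM143 (r = 0.981), RAB32 (0.968), DDX51 (0.967), ACOT2 (0.966) and SLC35A2 (0.965). RAB32 had 136.6, 123.5 and 126.3 FPKM in sh-CFB and 143.1, 144.1 and 141.3 FPKM in sh-NC.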

How the data were processed

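Values were FPKM per gene, computed by the authors and deposited as 1 table with a column per library. STAR 2.7.3a, featureCounts 2.0.1, Trimmomatic 0.39 and FastQC 0.11.9 are listed with GRCh38, per the submitters' processing notes. How strand and multiply placed reads were treated, and how FPKM was calculated, is not stated in these sources. Coordinates, exons and GC content came from GENCODE 29, and symbols were found for 22492 genes.

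Reads and totals were recovered from the steps of the deposited FPKM (100% of genes whole within 0.005). There were 11126 gene and library values of 2 reads against 6639 of 1, so the reads of a pair may both be counted (not tested). In a gene of 2000 bases, 3 reads are 0.0375 FPKM in the deepest library and 0.0572 in the shallowest, and such floors cover counting error only.

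Genes with a mean of at least 0.5 FPKM were fitted as log2(FPKM + 0.5), a scale that understates changes of low genes, with limma 3.58.1 in R 4.3.3, intensity trend and Benjamini-Hochberg adjustment over all 12466 genes at 0.05. The GC and length correction used smooth terms of mgcv 1.9.3. Tables and figures were made in Python 3.11.15 (pandas 2.3.3, numpy 2.4.6, matplotlib 3.10.9, scipy 1.17.1). Other settings tried were pseudocounts of 0.1 and 1, filters, scalings, voom on recovered reads, a replicate block and leaving out libraries.

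The members and lists were chosen with earlier results of these data known. Named genes were the members and CFB, in each list up to 2 changed genes per direction by size or, with none changed, the gene of highest level, 4 heat shock genes, and the 5 genes closest to FOS and to FOSL1. NR4A2, GADD45B, RHOB, KHSRP, HSPB1, BAG3, HSPH1, HSPA8, RPS6KA4, MRTFA, SRF, AXL and EGR1 were named outside this rule. Planned protein comparisons were not made.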

Additional observations from a re-analysis of the deposited data

How the results depend on the processing

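The count of 929 changed genes (217 higher and 712 lower in sh-CFB) moved most. It was 206 (68 and 138) with median-of-ratios factors, 324 (68 and 256) without a filter on low values and 318 (126 and 192) with voom and median-of-ratios factors, and the higher count was 465 with quantile normalization and 571 when corrected for GC and length. Leaving out 1 library gave 20 to 540 changed genes, the fewest without replicate 2 of sh-CFB (39) or of sh-NC (20), of which 6 to 126 were higher and 14 to 414 lower. The 19 changed list genes became 9 with median-of-ratios factors, 8 without a filter and 4 to 14 with a library left out. The cause was not tested.

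A replicate block on limma left 0 changed genes (0 higher, 0 lower) and 0 in the lists, also with the GC and length correction, while 1770 and 2468 genes had an unadjusted p under 0.05. Deviations from the group means correlated at -0.539, 0.0682 and -0.448 between same-numbered libraries. These deviations also carry the GC relation of each library, so they cannot tell whether same-numbered libraries shared a culture or a day.

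The FOSL1 difference was 0.038 with median-of-ratios factors, 0.045 with voom and those factors and -0.24 with quantile normalization. Counted in reads in place of FPKM, FOSL1 took 39.5% of the family in sh-CFB and 47.5% in sh-NC, FOS took 0.794% in sh-NC, and FOS stood at 7.50% of FOSL1 in sh-CFB and 1.67% in sh-NC. After the GC correction the last was 0.899%, and over FOS and JUN families alone FOSL1 took 61.3% in sh-NC.

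With 3 libraries a group and lowest counts of 146 reads for FOSB, both the spread between libraries and depth limit the precision for the members.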

Other observations

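Within the sh-NC libraries other genes spread as ATF3 did, some stress and cytokine genes among them. On plain FPKM ATF3 was 2.30-fold higher in the highest sh-NC library, replicate 1, than in the lowest, replicate 3. The median tested gene spanned 1.29-fold on the FPKM + 0.5 scale, which is not the same scale. The spread was not particular to stress and cytokine genes, as BACH1 had 5.13, 3.72 and 1.82 FPKM and CNOT1 12.1, 9.89 and 4.36 FPKM in sh-NC. DDIT3, which encodes the stress factor CHOP, had 6.68, 6.74 and 9.22 FPKM in sh-CFB and 19.98, 15.7 and 9.57 FPKM in sh-NC. CEBPG, which pairs with ATF4, had 5.87, 10.02 and 10.02 FPKM in sh-CFB and 22.8, 15.6 and 9.90 FPKM in sh-NC. LIF, a cytokine of the IL-6 family, had 11.7, 11.9 and 13.7 FPKM in sh-CFB and 23.6, 18.2 and 8.97 FPKM in sh-NC. After the GC and length correction sh-NC replicate 1 remained highest and replicate 3 lowest for ATF3, DDIT3, CEBPG and LIF. The ratios were 2.01, 2.15, 1.89 and 2.71 in that order. These genes were picked after their values were seen, and no test was made.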
